A study of Xenopus laevis with 4 samples.

Results

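The genes described here belong to the families of transcription factors that pattern the animal body, among them the Hox, Fox, Sox, GATA, Pax, T-box, Nkx, LIM, TALE and Krüppel-like factors, measured in the dorsal and the ventral pancreatic bud of *Xenopus laevis*. They were chosen by symbol, with earlier results of these data known. Every probe set was taken that carried exactly 1 gene symbol starting with such a family's name, with gata5, foxa1 and hnf4a left out. This took 193 probe sets for 144 of the 7531 gene symbols on the array, of 15491 probe sets that are not controls, and they fell into 16 families. *Xenopus laevis* is allotetraploid, so most genes exist as 2 homeologues, marked .L and .S after the subgenome that carries them, and a probe designed on one of them can pick up the other as well.

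Total RNA came from pools of buds dissected from tadpoles before the dorsal and ventral buds fuse. Embryos had been raised in 0.1XMMR, and tadpoles were anaesthetised with MS-222, in both groups alike. Each bud type was collected as 2 pools of 1000 to 3000 buds, and every pool was hybridised to its own 1-colour Affymetrix array. Pairs of values below give replicate 1 and then replicate 2. Both groups were otherwise untreated as far as the labels say, and the labels give no strain, stage in days or separate clutches, so the p-values reflect no more than how much these pools varied, which may be technical.

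In vertebrates the gut tube gives off pancreatic buds on its dorsal and its ventral side, which meet and fuse later. The endoderm of each bud makes the exocrine and endocrine cells, and gut mesoderm around it makes the mesenchyme. Patterning factors bind DNA through a domain shared by the family, such as the homeodomain, the forkhead domain or the HMG box, and the set of them a cell uses marks its position along the gut and its lineage.

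Intensity had a mean of 100 on each array, and the 17 control probe sets for artificial tag sequences, which no frog transcript should bind, ranged up to 21.5. The buds carried pancreatic transcripts on all arrays: the summed intensity of the exocrine markers, of which 8 of 9 genes were on the array, was 14102 and 5826 in the dorsal pools and 10913 and 5967 in the ventral pools. Markers of endocrine cells summed to 3647 and 4381 in the dorsal pools and 189 and 139 in the ventral pools, and those of liver to 1237 and 3334 in the dorsal pools and 5202 and 4880 in the ventral pools. Skeletal muscle markers summed to 574 and 394 in the dorsal pools and 1144 and 1513 in the ventral pools, and granulocyte markers to 96.8 and 140.3 and to 333 and 591. The dorsal pools differed more from each other than the ventral pools did: across all 9294 probe sets tested, the log2 difference between replicates had an SD of 0.48 for dorsal and 0.29 for ventral buds, and among the patterning factors it was 0.52 and 0.31.

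Most patterning factors were dim in both buds. A probe set was tested if its mean log2(intensity + 6) over the 4 arrays lay above the 40th percentile of all probe sets, which corresponds to an intensity of about 15.1. Of the 193 probe sets, 40 passed, for 35 genes, and 153 did not. All values of 145 of these 153 lay below the highest tag control, and 26 of the 40 tested probe sets lay above it on all 4 arrays. That control was a single value of 21.5 on ventral replicate 1. The highest tag control was 11.7 and 12.6 on the dorsal arrays and 9.37 on ventral replicate 2. Median intensity on an array ran from 21.8 to 24.2, so values below 21.5 are common, and their share over all probe sets was not taken. The filter was passed by 9294 of all 15491 probe sets. The families differed in how many of their probe sets passed. Of the GATA family 5 of 9 passed, of the Krüppel-like family 8 of 18 and of the Sox family 7 of 18. Of the group of Meis, Pbx and Irx 6 of 11 passed, all of them Meis or Pbx probe sets, and no Irx probe set did. Of the Hox family 1 of 28 passed, of the Fox family 4 of 23, of the T-box family 2 of 13, of the Pax family 2 of 21 and of the Nkx family 3 of 10. The group of Msx and Dlx had 1 of 10 and Snai had 1 of 3. No probe set passed among the 13 of the LIM group, the 7 of Pitx and Otx, the 5 of the sine oculis family and the 3 of Cdx. The only Hnf probe set, of hnf4b.S, did not pass either. Barx, Prrx, Onecut, Twist and Isl were looked for too, and no probe set carried one of them as its single symbol. A dim probe set shows only that these probes gave little signal in pooled buds, not that the gene was silent.

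**Figure D1:**
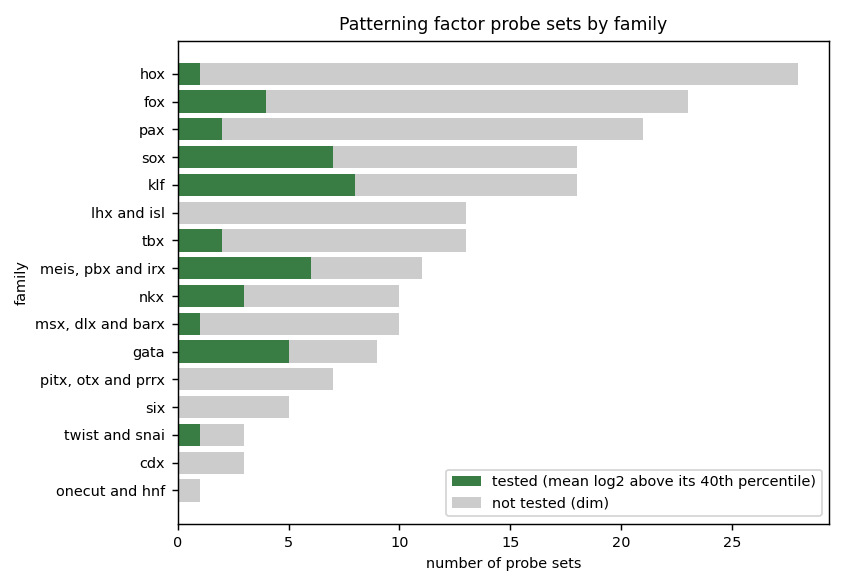
Number of probe sets in each of the 16 families (horizontal axis), divided into those bright enough to be tested (green) and those that were not (grey). The Krüppel-like family has 8 tested probe sets of 18, while the Hox family has 1 of 28. Family names are those looked for, and no probe set belongs to Barx, Prrx, Onecut, Twist or Isl.

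In the fit across all probe sets, no tested patterning factor passed the threshold for a difference between the buds. In limma, adjusted by Benjamini-Hochberg over the 9294 probe sets, 0 of 40 reached an adjusted p under 0.05, a threshold passed by 0.258% of all tested probe sets. An unadjusted p under 0.05 was reached by 5 of the 40, or 12.5%, against 8.62% of all tested probe sets, and all 5 were higher in the ventral pools (5.21% of all tested probe sets in that direction, against 3.41% in the other). They were klf11.L, tbx2.L, klf17.1.S, klf8.L and gata1.L. Of these, klf17.1.S had both dorsal values below the filter level and was tested only through its ventral values, so the filter favoured its direction. The 2 dorsal values did not overlap the 2 ventral values in 14 of the 40 (35%, against 39.9% of all tested probe sets), 9 of them with ventral higher (22.5% against 18.1%) and 5 with dorsal higher (12.5% against 21.9%). None of the 40 was at least 2-fold apart one way in every one of the 4 pairings of a dorsal with a ventral array, which 0.882% of all tested probe sets were. Log2 differences, dorsal minus ventral on the log2(intensity + 6) scale, ran from -0.74 to 0.56, with a median of -0.06 against 0.03 for all tested probe sets. With 2 arrays a group an exact permutation test cannot give a two-sided p below 0.333.

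Without the filter, 21 of the 193 probe sets, or 10.9%, had an unadjusted p under 0.05, against 8.31% of all 15491. Of the 21, 13 were higher in dorsal buds, 5 of them probe sets of 1 gene, pax6.L, where 3.29% of all probe sets were, and 8 were higher in the ventral pools, where 5.02% were. Over all 193 the groups did not overlap in 38 with dorsal higher (19.7%, against 19.2% of all probe sets) and 39 with ventral higher (20.2%, against 19.3%).

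**Figure D2:**
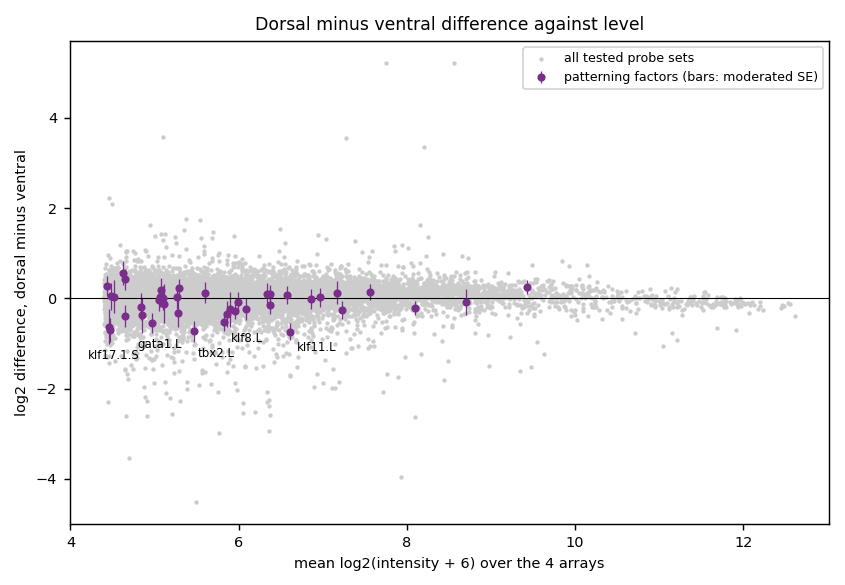
Log2 difference, dorsal minus ventral (vertical axis), against the mean log2(intensity + 6) over the 4 arrays (horizontal axis), for all tested probe sets (grey) and the 40 tested patterning factors (purple, bars show the moderated SE). The patterning factors lie between -0.74 and 0.56, and the 5 with an unadjusted p under 0.05, named in the plot, all lie below 0.

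Pax6 stood apart from the tested members, and it lay below the filter. Pax6 is a paired-domain homeodomain factor that islet cells need for their differentiation in the mouse, and that also acts in the eye and the nervous system. The array holds 6 probe sets for pax6.L. The brightest of them had intensities of 32.7 and 33.1 in dorsal replicates 1 and 2 and of 1.31 and 0.958 in ventral replicates 1 and 2. Both dorsal values lay above the highest tag control and both ventral values near the bottom of the range, so the groups were far apart. Its probes recognise several alternative transcripts of the gene, as the suffix of its name says. With no filter on dim probe sets, which tests all 15491, its log2 difference was 2.45 ± 0.25 (SE) with an adjusted p of 0.0306 in limma, a threshold passed by 0.129% of all probe sets in that fit, and it was the only 1 of the 193 members to pass. The fold depends on the pseudocount because the ventral values lie below it: the log2 difference was 1.18 with 4 times the pseudocount (adjusted p = 0.0422) and 4.0 with a pseudocount of 1 (adjusted p = 0.0339). Without ventral replicate 1 the difference was 2.48 but the adjusted p 0.625, and without ventral replicate 2 they were 2.41 and 1.00, with the lone ventral array taken to vary like the dorsal ones.

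The other pax6.L probe sets, here lettered B to F in order of their dorsal mean after the brightest as A, mostly showed the same direction. Set B was at 20.4 and 21.1 in the dorsal pools and 4.92 and 5.32 in the ventral pools, which is a log2 difference of 1.27 ± 0.25 in the unfiltered fit (adjusted p = 0.188). Set C was at 23.6 and 17.6 in the dorsal pools and 3.72 and 2.43 in the ventral pools, which is a difference of 1.55 ± 0.27 (adjusted p = 0.160). Thus both sets had their 2 dorsal values above their 2 ventral values. Set D was at 13.0 and 22.3 against 0.603 and 6.26, and set E at 14.4 and 14.1 against 4.77 and 5.12, with differences of 1.37 and 0.89. Set F went the other way at a very low level, with 1.5 and 0.828 in the dorsal pools and 2.28 and 6.12 in the ventral pools. Dorsal values were thus above ventral values in 5 of the 6 sets, and sets A, B and C were at least 2-fold apart in all 4 array pairs. They were the only 3 of the 193 members to be so (1.55%, against 0.749% of all 15491 probe sets). The 6 sets read the same gene, and 3 of them contain probes that also match other sequences, so they are not independent measurements.

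Other endocrine genes were higher in the same pools as pax6.L. The endocrine marker list had 8 of 8 genes on the array, with 8 probe sets tested, and 4 of these passed the threshold, all higher in dorsal buds (0.0753% of all tested probe sets were called in that direction); they were both insulin copies, ins.L and ins.S, and the hormone-processing genes pcsk2.L and cpe.L. The hormone genes gcg.L and sst.1.L in it were dim on all arrays, between 1.27 and 10.9. The part of these cells in the pax6.L difference was not tested, and in pooled buds fewer cells of a type and less RNA per cell cannot be told apart. Markers of neural cells, where pax6 is also used, summed to 24.2 and 94.4 in the dorsal pools and 43.2 and 35.7 in the ventral pools, with 7 of 9 genes on the array. Of the 8 neural probe sets 1 was bright enough to be tested, and the part of neural cells in the pax6.L difference was not tested.

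A second islet factor, nkx2-2.S, a homeodomain repressor needed for beta cells in the mouse, lay below the filter too. It stood at 16.5 and 10.9 in the dorsal pools and 7.02 and 4.64 in the ventral pools. The groups did not overlap, but all 4 values lay below the highest tag control, and only dorsal replicate 1 lay above that of its own array (11.7). Its unfiltered log2 difference of 0.73 ± 0.28 did not pass (adjusted p = 0.541). It was chosen for description after its values were seen, as were all genes named below that the naming rule of the methods does not cover.

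**Figure D3:**
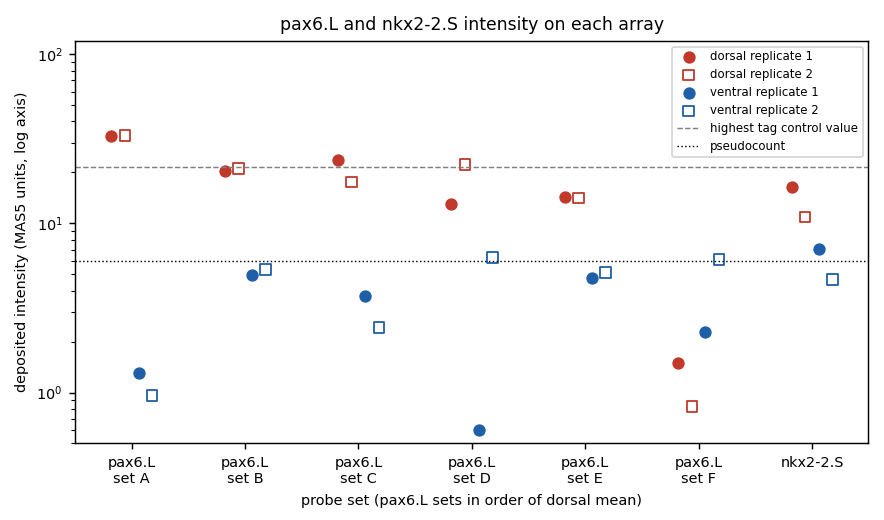
Deposited intensity on a log axis of the 6 pax6.L probe sets and of nkx2-2.S on the 4 arrays (red for dorsal, blue for ventral; circles for replicate 1, open squares for replicate 2), with the highest tag control (21.5, dashed) and the pseudocount (6, dotted). In 5 of the 6 pax6.L sets both dorsal points lie above both ventral points, and in set A the dorsal points are at 32.7 and 33.1 and the ventral points at 1.31 and 0.958.

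Gata4, gata6 and sox9 gave signal well above the tag controls in both buds. Gata4 and gata6 encode zinc finger factors that act together in pancreas formation in the mouse and in the endoderm and heart of vertebrates. Gata6.L stood at 682 and 817 in the dorsal pools and at 652 and 599 in the ventral pools. The dorsal values lay just above the ventral ones, and the log2 difference of 0.25 ± 0.15 did not pass (95% interval -0.10 to 0.61, adjusted p = 0.699). Gata6.S was at 41.5 and 48.3 in the dorsal pools and 47.9 and 34.1 in the ventral pools, with overlapping groups and a difference of 0.13 ± 0.23.

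Gata4.L had intensities of 557 and 288 in the dorsal pools and 448 and 402 in the ventral pools. The dorsal pools lay on either side of the ventral pools, and the log2 difference was -0.08 ± 0.29 (95% interval -0.77 to 0.61). Its value turned on the dorsal pool used: it was -0.55 without dorsal replicate 1 (adjusted p = 0.0402, in a fit that called 9.71% of all probe sets) and 0.39 without dorsal replicate 2. In each fit without a dorsal array, here and below, the spread came from the ventral pools alone, and the lone dorsal array was taken to vary like them. Gata4.S was at 38.7 and 34.3 against 31.0 and 29.7, a difference of 0.22 ± 0.20 with no overlap. In 3 of the 5 tested GATA probe sets the dorsal replicates differed by more than the group means did. A difference between single arrays varies more than a difference between means of 2 arrays. Such counts, here and below, can thus be high without any difference between buds.

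Sox9.S, an HMG-box factor of pancreatic progenitors in the mouse, stood at 63.7 and 83.0 in the dorsal pools and 80.2 and 81.8 in the ventral pools, which is a log2 difference of -0.14 ± 0.21 with overlapping groups. Sox17a.L, an endoderm determinant of the frog gastrula, was at 5.68 and 20.5 in the dorsal pools and 18.9 and 23.8 in the ventral pools. Dorsal replicate 1 alone was low, and the log2 difference of -0.63 ± 0.39 moved to -0.04 without it and to -1.22 without dorsal replicate 2 (adjusted p = 0.0242, in a fit that called 3.74% of all probe sets). Sox2.L, a factor of neural tissue and of anterior foregut, was at 9.73 and 9.81 in the dorsal pools and 8.15 and 41.0 in the ventral pools and was not tested. Only ventral replicate 2 was above the highest tag control, and the unfiltered log2 difference went from -1.58 to 0.16 when 1 array was left out.

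Both homeologues were tested for 5 genes, and none of these probe sets passed. The copies pointed the same way in 2 of the 5 genes, gata6 and nkx2-3, and opposite ways in gata4, klf10 and meis3. For klf10, a Krüppel-like factor first found as a target of TGF-beta, klf10.L was at 60.04 and 52.4 in the dorsal pools and 53.4 and 66.1 in the ventral pools. Klf10.S was at 25.3 and 30.8 in the dorsal pools and 25.4 and 28.9 in the ventral pools. Both had overlapping groups, with log2 differences of -0.07 ± 0.21 and 0.03 ± 0.22. In nkx2-3 the difference was 0.56 ± 0.27 for the .S copy and 0.00 ± 0.27 for the .L copy. The difference between copies was not tested.

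**Figure D4:**
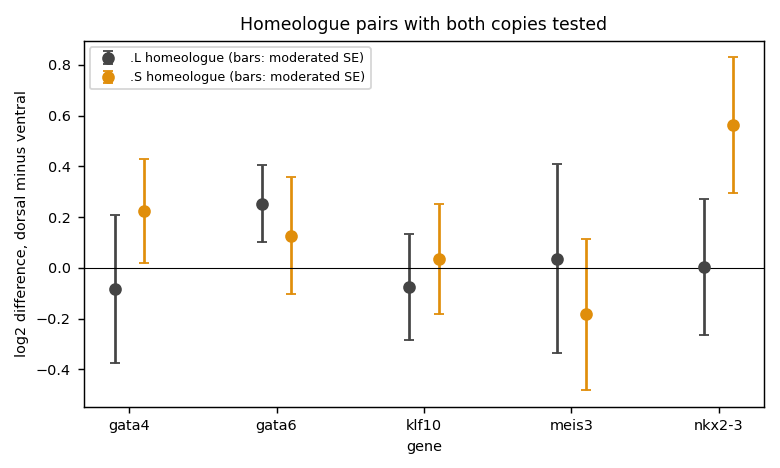
Log2 difference, dorsal minus ventral (vertical axis), with its moderated SE, for the .L (dark grey) and .S (orange) copies of the 5 genes with both homeologues tested. The values run from -0.18 for meis3.S to 0.56 for nkx2-3.S, and none passed the threshold.

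Krüppel-like factors supplied 3 of the 5 members with an unadjusted p under 0.05. The family held 8 of the 40 tested probe sets. Its 3 were all higher in the ventral pools (5.21% of all tested probe sets), and klf17.1.S passed the filter only through its ventral values. These zinc finger factors bind GC-rich promoter elements, and in human cells KLF11 acts on the insulin promoter. Klf11.L had intensities of 72.6 and 66.2 in the dorsal pools and 114 and 126 in the ventral pools. Both ventral arrays lay well above both dorsal arrays, and this was the tested member with the largest difference, -0.74 ± 0.19 (95% interval -1.18 to -0.30) or 1.67-fold higher in the ventral pools on the log2(intensity + 6) scale, which understates the fold of dim probe sets, at an unadjusted p of 0.00542. It did not pass over all probe sets (adjusted p = 0.246). Without dorsal replicate 1 it did, at -0.80 (adjusted p = 0.0169), in a fit that called 9.71% of all probe sets. Liver, muscle, granulocyte, mesenchyme and red blood marker sums were also higher in the ventral pools, and their part in the klf11.L value was not tested. The liver list had 2 of its 14 tested probe sets past the adjusted threshold with ventral higher (0.183% of all tested probe sets) and a median log2 difference of -1.55.

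The 2 tested probe sets of klf8.L differed in what they showed. The brighter stood at 36.2 and 46.9 in the dorsal pools and 63.6 and 60.2 in the ventral pools, with no overlap and a log2 difference of -0.52 ± 0.21 (adjusted p = 0.551). The other was at 11.1 and 23.8 against 15.1 and 16.9, with a difference of 0.04 ± 0.31. Of klf6.L, a factor induced by injury in many tissues, the brighter of the 2 tested probe sets was at 50.02 and 51.0 in the dorsal pools and 58.0 and 66.8 in the ventral pools, which is a difference of -0.27 ± 0.20. The dimmer klf6.L probe set was at -0.05 ± 0.24, with overlapping groups. Over the 8 tested probe sets of the family, for 6 genes, the median difference was -0.17. A negative sign was seen in 6 of the 8 (45.7% of all tested probe sets).

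Gata1.L and klf17.1.S, the other members with an unadjusted p under 0.05 in the GATA and Krüppel-like families, were dim. Gata1 is the master regulator of red cell development. Gata1.L was at 21.0 and 18.6 in the dorsal pools and 28.4 and 35.4 in the ventral pools, which is a log2 difference of -0.55 ± 0.22 (adjusted p = 0.553). Its homeologue gata1.S, not tested, was at 7.81 and 7.01 in the dorsal pools and 9.14 and 20.5 in the ventral pools, in the same order. Klf17.1.S, for which the gene table also gives the name neptune, was at 13.1 and 9.86 in the dorsal pools and 18.1 and 27.0 in the ventral pools, which is a difference of -0.70 ± 0.26 (adjusted p = 0.518). Dorsal and ventral values did not overlap for either tested probe set. The klf17.L homeologue was not tested, and its probe sets disagreed, with no overlap and ventral higher in one (15.5 and 9.04 against 17.4 and 19.4) and overlap in the other.

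Red blood cell markers were higher in the same arrays. The list had 7 of 9 genes on the array. Its summed intensity was 6831 and 4399 in the dorsal pools and 8038 and 10663 in the ventral pools. In 4 of its 5 tested probe sets the groups did not overlap, all with ventral higher (18.1% of all tested probe sets). In limma 0 passed, and 4 had an unadjusted p under 0.05, all with ventral higher (5.21% of all tested probe sets). The part of blood in the gata1.L and klf17.1.S values was not tested. Sox18.S, a factor of vessel endothelium, stood at 18.0 and 17.5 in the dorsal pools and 13.7 and 13.6 in the ventral pools, which is a log2 difference of 0.27 ± 0.22. The replicates were nearly equal in each bud and all 4 values lay below the highest tag control. Against the highest tag control of each array, both dorsal values lay above it (11.7 and 12.6). So did ventral replicate 2 (9.37), but not ventral replicate 1 (21.5). Endothelial markers, with 3 of 6 genes on the array, summed to 153 and 131 in the dorsal pools and 114 and 127 in the ventral pools.

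Factors of gut mesoderm and mesenchyme had differences of both signs, none past the adjusted threshold. Tbx2.L, a T-box repressor of many mesodermal tissues, stood at 23.4 and 34.04 in the dorsal pools and 50.7 and 51.3 in the ventral pools. The ventral arrays were nearly equal and above both dorsal arrays, and the log2 difference was -0.73 ± 0.23 (95% interval -1.28 to -0.19, unadjusted p = 0.0154, adjusted p = 0.410), or 1.66-fold higher in the ventral pools. Without dorsal replicate 2 it was -0.96 (adjusted p = 0.0245), in a fit that called 3.74% of all probe sets, while leaving out dorsal replicate 1 instead gave -0.51 (adjusted p = 0.174). Tbx3.S, the other tested T-box member, was at 10.8 and 32.0 in the dorsal pools and 22.7 and 31.5 in the ventral pools, with overlapping groups.

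Foxf1.L, the forkhead factor of visceral mesoderm, was at 33.3 and 69.8 in the dorsal pools and 43.1 and 79.3 in the ventral pools, so that replicate 2 lay above replicate 1 in both buds and the groups overlapped (log2 difference -0.25 ± 0.38). Msx2.L, a homeodomain factor and target of BMP signals, was at 15.4 and 16.3 in the dorsal pools and 18.6 and 27.2 in the ventral pools, which is a difference of -0.39 ± 0.25. Msx1.L, not tested, was at 7.23 and 7.83 against 12.6 and 24.7, with ventral higher and no overlap. Its homeologue msx1.S, not tested either, went the other way without overlap at a lower level, at 3.10 and 4.94 against 1.67 and 1.21. The dimmer msx2.L probe set, not tested, had overlapping groups. Snai1.S, a zinc finger repressor of epithelial character, was at 25.7 and 34.7 against 20.5 and 32.4, with overlapping groups.

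The Nkx factors of gut mesoderm had no tested member with a ventral sign, and none passed the threshold. Nkx2-3.S was at 22.1 and 26.3 in the dorsal pools and 10.8 and 18.6 in the ventral pools, the largest dorsal difference of a tested member at 0.56 ± 0.27 (adjusted p = 0.640). Its ventral values alone would not have passed the filter, so it was tested through its dorsal values. Nkx2-3.L was at 22.4 and 35.3 against 24.2 and 32.6, with overlapping groups. Nkx3-3.S, called zampogna in the frog and related to the fly gene bagpipe, was at 19.9 and 26.3 in the dorsal pools and 14.6 and 16.7 in the ventral pools, which is a difference of 0.42 ± 0.24 with no overlap (adjusted p = 0.678). Nkx2-5.S, known for its part in the heart, was not tested; its brighter probe set was at 13.6 and 29.7 in the dorsal pools and 10.7 and 6.41 in the ventral pools, with no overlap. Beyond the 3 tested Nkx probe sets, of which 2 had no overlap with dorsal higher, 4 of the 7 that were not tested were also higher in dorsal with no overlap, where 21.9% of all tested and 19.2% of all 15491 probe sets were. They include nkx2-2.S and both probe sets of nkx2-5.S, and no limma test of an Nkx probe set passed, with or without the filter. Nkx was not the only family with such a lean among untested probe sets. Without overlap, 8 of 19 Fox probe sets were higher in ventral and 2 in dorsal, and 4 of 11 T-box probe sets in ventral and 1 in dorsal. Over all 15491 probe sets the shares were 19.3% with ventral higher and 19.2% with dorsal higher. Of 19 Pax probe sets, 8 were higher in dorsal and 1 in ventral, but 5 of these 8 read the same gene, pax6.L, and are not independent.

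Mesenchyme marker sums were higher in the ventral pools. The list had 7 of 8 genes on the array, and it summed to 975 and 1290 in the dorsal pools and 1591 and 2242 in the ventral pools. No overlap was seen in 7 of its 12 tested probe sets, all with ventral higher (18.1% of all tested probe sets). Several of the 7 read the same gene, fn1.S or col1a1.S. In limma 0 passed, and 6 had an unadjusted p under 0.05, all with ventral higher (5.21% of all tested probe sets). The part of mesenchyme in the values of tbx2.L, msx2.L, msx1.L and the Nkx genes was not tested.

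The factors of head-to-tail position were mostly dim, apart from the TALE homeodomain partners of Hox proteins. Hoxa3.S, which acts at the level of the pharynx in vertebrates, was the only Hox probe set tested, at 19.3 and 41.8 in the dorsal pools and 38.0 and 37.2 in the ventral pools. Dorsal replicate 1 alone was low, and the log2 difference was -0.33 ± 0.32. The other 27 Hox probe sets had values between 0.39 and 22.6. Of these, 5 had dorsal above ventral and 5 ventral above dorsal without overlap, near the shares of 19.2% and 19.3% over all 15491 probe sets. Hoxc5.L reached 22.6 in dorsal replicate 2, with 7.19 in the other dorsal pool and 4.34 and 1.37 in the ventral pools. The intestinal Cdx factors had values between 0.49 and 7.53.

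Pbx2.L and the Meis genes encode the partners that Hox and other homeodomain proteins bind DNA with. Pbx2.L stood at 150.0 and 115 in the dorsal pools and 151 and 165 in the ventral pools, which is a log2 difference of -0.25 ± 0.20. Dorsal replicate 1 nearly equalled ventral replicate 1, so the groups only just failed to overlap. Meis2.L was at 184 and 113 against 121 and 142, and the brighter meis1.S probe set at 126 and 114 against 136 and 102, both with overlap. Meis3.L was at 9.85 and 28.0 in the dorsal pools and 15.0 and 18.4 in the ventral pools, and meis3.S at 14.6 and 29.3 against 25.8 and 23.4. In 5 of the 6 tested Meis and Pbx probe sets the dorsal replicates differed by more than the group means did.

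Among factors known mainly from the nervous system and ectoderm, pax3.L was bright in both buds. Pax3 marks neural crest and muscle precursors. Of 4 pax3.L probe sets, 2 were tested, at 245 and 249 in the dorsal pools and 269 and 308 in the ventral pools for the brighter and at 208 and 177 against 168 and 182 for the other, with log2 differences of -0.22 ± 0.16 and 0.13 ± 0.18. The other 2 pax3.L probe sets lay between 0.65 and 10.2 on all arrays, so the probe sets that the annotation gives this symbol disagreed on whether there was signal, and the bright ones are uncertain as a measure of pax3. Sox11.S, a factor of immature neurons and other progenitors, was at 95.9 and 124 in the dorsal pools and 99.2 and 123 in the ventral pools, which is a log2 difference of -0.01 ± 0.21. Sox15.L, called soxD in the frog, was at 81.6 and 102 against 81.7 and 92.3. The brighter foxk2.L probe set was at 88.0 and 72.8 in the dorsal pools and 79.0 and 69.3 in the ventral pools, and foxo3.L, which restrains growth when insulin signals are low, at 91.9 and 65.5 against 81.9 and 64.0.

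The remaining families of head, eye and limb patterning were near background. The 13 LIM probe sets had values between 0.49 and 11.2. The 5 of the sine oculis family lay between 0.49 and 10.5, and the 7 of Pitx and Otx between 0.30 and 9.95. In these families 8 probe sets had dorsal above ventral and 3 ventral above dorsal without overlap (19.2% and 19.3% over all 15491 probe sets), all below the highest tag control. The 8 pax2.L probe sets were dim throughout, between 0.265 and 9.85.

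**Figure D5:**
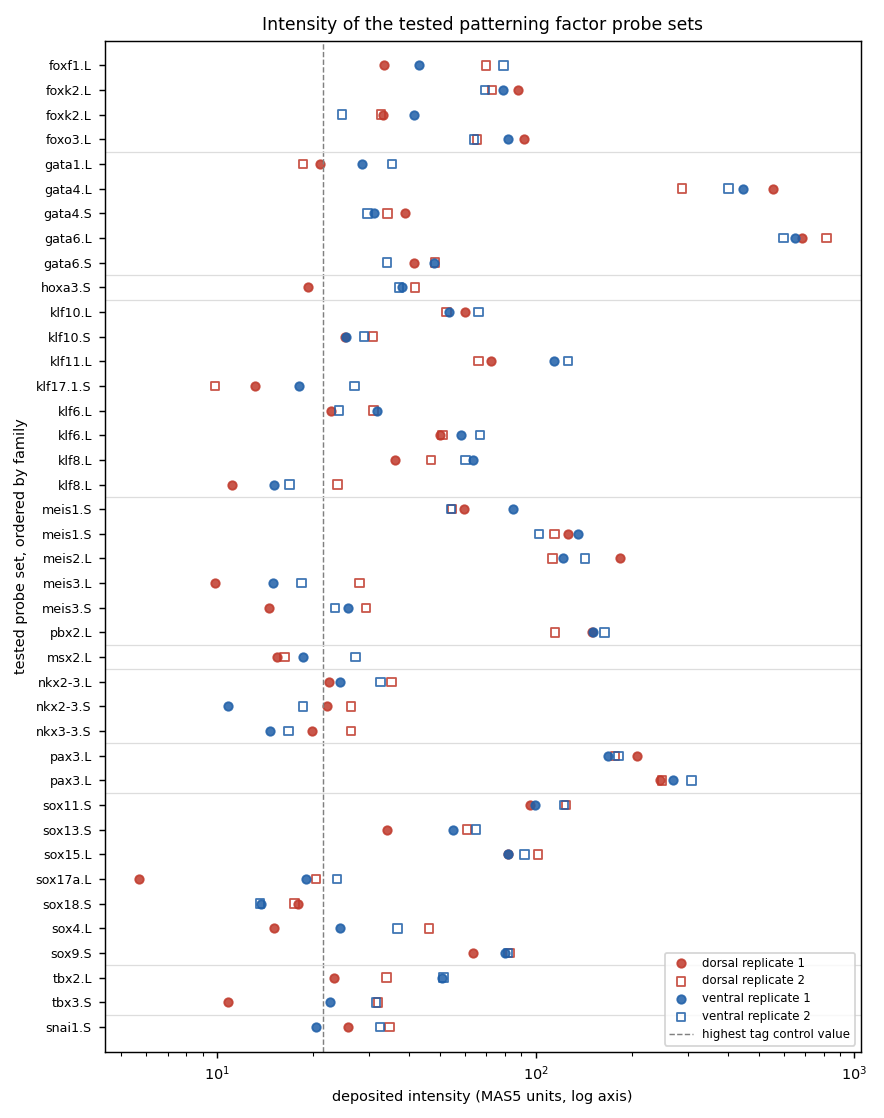
Deposited intensity on a log axis (horizontal) of the 40 tested patterning factor probe sets, ordered by family and with genes repeated where several probe sets passed; red points are dorsal and blue points ventral pools, circles replicate 1 and open squares replicate 2, and the dashed line is the highest tag control (21.5). For klf11.L the ventral points lie at 114 and 126 and the dorsal points at 72.6 and 66.2, while for sox4.L and tbx3.S the dorsal pools lie on either side of the ventral ones.

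The spread between dorsal pools was larger than most differences between buds. In 26 of the 40 tested probe sets the dorsal replicates differed by more than the group means. As said above, such a count can be high without any difference between buds, and its share over all tested probe sets was not taken. Sox4.L, an HMG-box factor that islet development needs in the mouse, was the most spread, at 15.1 and 46.2 in the dorsal pools and 24.2 and 36.9 in the ventral pools, with a log2 difference between dorsal replicates of 1.31 against -0.12 ± 0.43 between buds. Sox17a.L, tbx3.S and meis3.L followed, with dorsal replicate 2 above dorsal replicate 1 by 1.18, 1.17 and 1.10. The median over the 40 was 0.22 higher in dorsal replicate 2 than in dorsal replicate 1, against 0.02 over all tested probe sets. Marker sums differed between the dorsal pools too. From dorsal replicate 1 to 2, neural markers rose from 24.2 to 94.4, liver from 1237 to 3334 and mesenchyme from 975 to 1290. Exocrine markers fell from 14102 to 5826, skeletal muscle from 574 to 394 and red blood from 6831 to 4399. Endocrine and granulocyte sums were higher in dorsal replicate 2, and the endothelial sum lower. The neural sum rests mostly on dim probe sets and includes sox10.L, itself a member. The part of these cells in this spread was not tested.

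Cofactors and upstream signals of these families were read from a list of 51 genes, of which 30 were on the array with 48 probe sets and 28 tested. In limma 0 of the 28 passed and 2 had an unadjusted p under 0.05, both higher in the ventral pools (5.21% of all tested probe sets in that direction). The first was lmo4.2.L, at 35.2 and 30.5 in the dorsal pools and 50.9 and 57.2 in the ventral pools (log2 difference -0.63). The second was lmo7.S, at 10.2 and 12.6 against 17.4 and 23.2 (-0.59). Each gene has another probe set that was not tested, with overlapping groups. The groups did not overlap in 9 of the 28 with ventral higher and 2 with dorsal higher (18.1% and 21.9% of all tested probe sets), and the median log2 difference was -0.10 against 0.03 for all tested probe sets. Ldb1.L, which bridges LIM proteins on DNA, was at 325 and 349 in the dorsal pools and 327 and 395 in the ventral pools. The corepressor gene tle5.L was at 383 and 332 against 378 and 284. Both had overlapping groups. The homeologue tle5.S was at 148 and 177 against 129 and 140, with dorsal higher and no overlap (log2 difference 0.26, adjusted p = 0.753). Lmo2.S, a bridging protein that works with Gata1 in blood, was at 73.8 and 48.9 in the dorsal pools and 81.9 and 107 in the ventral pools, which is a difference of -0.59 with no overlap (adjusted p = 0.584).

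The hedgehog ligand gene shh.L, in this list, was the other gene below the filter with a large difference. Sonic hedgehog is made by gut endoderm and kept low in pancreatic endoderm of chick and mouse. Shh.L was at 0.763 and 3.44 in the dorsal pools and 33.0 and 59.6 in the ventral pools, with both ventral values above the highest tag control. The unfiltered log2 difference of -2.66 ± 0.34 just missed the threshold (adjusted p = 0.0684). It was -2.42 without dorsal replicate 1, -2.90 without dorsal replicate 2, -3.04 without ventral replicate 1 and -2.29 without ventral replicate 2. With 4 times the pseudocount it was -1.40 (adjusted p = 0.121). It passed with the arrays quantile normalized (adjusted p = 0.0456) and with replicate number blocked (0.00926). With the filter, these 2 settings called 0.334% and 0.721% of all tested probe sets, against 0.258% in the main fit, so more probe sets passed there. The shares of these 2 settings without the filter, where shh.L passed, were not taken. The hedgehog mediators gli1.S, gli2.L, gli2.S and gli3.L were dim, between 1.07 and 16.9. Gli1.S had dorsal higher without overlap, at 4.43 and 6.99 in the dorsal pools and 1.20 and 1.61 in the ventral pools. Gli2.L had ventral higher without overlap, and gli2.S and gli3.L overlapped. The brighter probe set of smo.L, which transduces the signal, was at 28.7 and 35.9 in the dorsal pools and 37.2 and 57.2 in the ventral pools (log2 difference -0.45, adjusted p = 0.678). The dimmer smo.L probe set, smo.S, ptch1.S and the hhip.L probe sets had overlapping groups.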

How the data were processed

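The members and lists were chosen with earlier results of these data known. The deposited values are probe-set intensities on a linear scale, 1 column per array, made by the authors with MAS5 per the submitters' processing notes; the version, scaling target and detection calls are not given in the sources used here. The labels' protocols describe oligo(dT)-primed, biotin-labelled RNA, which favours 3′ ends. A pool held between 1 and 5 ng of RNA per the labels, far below the typical starting amount that their labelling protocol names; how the difference was made up is not given in the sources used here.

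Of 15611 probe sets, 120 controls were left out. The platform annotation gave 9304 of the other 15491 a single symbol, and 187 of the 193 member probe sets matched a RefSeq gene table (assembly Xenopus_laevis_v10.1) by gene ID, with 0 symbols changed. The pseudocount of 6 is the 20th percentile of all values. Differences were fitted with limma 3.58.1 in R 4.3.3 (lmFit, then eBayes with its prior variance following intensity), using all 4 arrays, tested on simulated data, with Benjamini-Hochberg adjustment over all tested probe sets. Errors are moderated SEs.

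Genes were named by rule: up to 12 tested members in each direction with the largest difference and no overlap, the brightest tested probe set per family, all genes with both homeologues tested, and the 5 untested probe sets with the highest single value. Alternatives were other pseudocounts, filters, scaling, no trend, a replicate block and leaving out each array. The number of arrays limits the precision.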

Additional observations from a re-analysis of the deposited data

How the results depend on the processing

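The count over all tested probe sets was 24, which became 13 under a stricter filter (60th percentile), 67 with the replicate block and 4 to 902 without 1 array. No label says that pools sharing a replicate number belong together, and the replicate differences of the dorsal and ventral buds correlated at r = 0.047 across probe sets, which are not independent, and the block changed no call of a tested member. Members past the threshold numbered 0, but 1 with no filter (pax6.L) and from 0 to 2 without 1 array. Those were gata4.L (-0.55) and klf11.L (-0.80) without dorsal replicate 1, and sox17a.L (-1.22) and tbx2.L (-0.96) without dorsal replicate 2. Members with an unadjusted p under 0.05 numbered 5, against 21 with no filter, 3 under the stricter filter, 3 with quantile normalization, 3 with the replicate block and 1 to 12 without 1 array. Members at least 2-fold apart in all pairs numbered 0, with 3 under no filter (pax6.L) and 0 to 1 without 1 array (sox17a.L, without dorsal replicate 2). Over all tested probe sets, those with an unadjusted p under 0.05 numbered 801, against 762 with quantile normalization and 809 with the replicate block. That count over all tested probe sets also rose when either dorsal array was left out, and fell when either ventral array was left out. The member counts without 1 array moved the same way, so they cannot be read as a change particular to members. Without a dorsal array the spread came from the ventral pools alone, with an SD between replicates of 0.29 over all tested probe sets. Without a ventral array it came from the dorsal pools alone, with an SD of 0.48. The cause of these shifts was not tested, beyond the number of probe sets and arrays in each fit. The brightest pax6.L probe set ran from 2.41 to 2.48 without 1 array in the unfiltered fit and lost its call without either ventral array. It kept its call in the 7 other unfiltered fits, chosen after seeing the data.

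All 40 tested members were refitted, those outside the naming rule after seeing the data, and the sign turned in at least 1 fit for 24. All 24 turned without some array, and 1 of them, the brighter meis1.S probe set, also with quantile normalization (-0.023). Ranges without 1 array were -0.72 to 0.23 for foxf1.L, -0.022 to 0.23 and -0.29 to 0.35 for the brighter and dimmer foxk2.L, -0.13 to 0.32 for foxo3.L, -0.55 to 0.39 for gata4.L, -0.086 to 0.34 for gata6.S and -0.78 to 0.13 for hoxa3.S. They were -0.21 to 0.066 for klf10.L, -0.083 to 0.15 for klf10.S, -0.23 to 0.13 for the dimmer klf6.L, -0.36 to 0.44 for the dimmer klf8.L, -0.52 to 0.064 and -0.17 to 0.22 for the dimmer and brighter meis1.S, -0.21 to 0.47 for meis2.L, -0.51 to 0.59 for meis3.L and -0.57 to 0.21 for meis3.S. The rest were -0.26 to 0.27 for nkx2-3.L, -0.77 to 0.54 for sox4.L, -0.32 to 0.033 for sox9.S, -0.19 to 0.16 for sox11.S, -0.72 to 0.019 for sox13.S, -0.085 to 0.21 for sox15.L, -0.96 to 0.21 for tbx3.S and -0.094 to 0.44 for snai1.S. Unfiltered, sox2.L ran from -1.58 to 0.16. The low signal of most members limits what could be tested.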
